A study of Homo sapiens with 16 samples.

Results

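The RNA response of MDA-MB-231 cells to knockdown of HNRNPC was measured in 4 total RNA libraries, 2 from an sgControl line and 2 from an sgHNRNPC line. Members were the transcripts listed for this pair of lines with a mean normalised value of at least 10 over the 4 libraries. This took in 8961 of the 8980 transcripts listed for the pair and of the 10823 listed in the series, and 4 of its 16 libraries. The last transcripts inside the limit were DNLZ, with a mean of 10.31, and LENG9, with 10.72, and those just outside were MTHFS, with 9.94, and FBXW9, with 9.56. A gene symbol was found for 8771 members, and the other 190 carried only a transcript identifier.

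The study compared a parental breast cancer line with a highly metastatic derivative, searched for RNA-binding proteins tied to differences in translation between them, and then silenced HNRNPC to follow ribosome footprints and RNA together. MDA-MB-231 is a triple-negative human breast cancer line of mesenchymal character. Both lines used here expressed a nuclease-dead Cas9 fused to the KRAB repressor (CRISPR interference), were sorted for the blue fluorescent protein that marks that fusion, received a guide by lentivirus and were selected with puromycin, and differed in the guide they carried. Parental MDA-MB-231 cells (MDA-Par) and their lung-metastatic derivative MDA-LM2 gave the RNA libraries used as a second comparison. The cells were grown in high-glucose medium with serum, and RNA was taken from the same lysates as the footprints. Per the study's methods the replicates of each line are biological, and how they were separated (cultures, days) is not given in the sources used here.

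HNRNPC is an abundant nuclear RNA-binding protein that coats nascent transcripts at runs of uridines. It is known for keeping splicing factors off cryptic, U-rich splice sites in introns, many of them in antisense Alu repeats, and for effects on where a transcript is cleaved and polyadenylated. RALY is a paralogue in the same protein family.

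The sum of reads recovered over listed transcripts was 5141959 and 5233548 in sgControl and 6164753 and 5702664 in sgHNRNPC, and the lowest value in any library stood for 5 or 6 reads. One transcript without a matched symbol, ENST00000536684, took 18.2 and 18.1% of the reads in sgControl and 19.7 and 21.1% in sgHNRNPC, and its part in the results was not tested beyond the scalings given below. Of 10 genes typical of MDA-MB-231, 10 were listed, among them VIM, CD44, AXL, EGFR, CAV1 and MMP14, against 3 of 10 luminal markers (KRT8, KRT19 and EPCAM) and 0 of 6 endothelial and fibroblast markers. Of 5 leukocyte markers 1 was listed, CD68, which is also a general lysosomal protein. It read 724 and 751 in sgControl and 887 and 1016 in sgHNRNPC, a log2 change of +0.36 ± 0.06 (adjusted p = 4.41e-06), and its part in the results was not tested.

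HNRNPC itself read 2162 and 2146 in sgControl and 1147 and 1183 in sgHNRNPC. Both sgHNRNPC libraries lay far below both sgControl libraries, a log2 change of -0.89 ± 0.05 (SE, n = 2 per group, as for every change given here), or 45.9% less RNA (adjusted p = 7.13e-34). The gene lies at chr14:21211106-21269425 (hg38), and leaving out each library in turn moved its change between -0.91 and -0.86. The sgHNRNPC line thus lowered HNRNPC RNA without removing it.

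RALY read 768 and 872 in sgControl and 844 and 884 in sgHNRNPC. The groups overlapped and the change of +0.08 ± 0.06 did not pass the test (adjusted p = 0.507). On the level per kb of mRNA, averaged over the 4 libraries, HNRNPC stood at 1065 and RALY at 136. A further family copy, HNRNPCL1 on chromosome 1, changed by -0.92 ± 0.23, from 61.5 and 70.4 in sgControl to 32.7 and 36.1 in sgHNRNPC. Of its sequence, 46.6% of 50-base stretches are found in another listed transcript, so reads of HNRNPC and HNRNPCL1 may not have been separable.

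Since CRISPR interference acts through repressed chromatin, the genes within 250 kb of HNRNPC were read as a check. Of 6 tested 0 passed by limma and 0 with voom weights on recovered reads, and 1 had an unadjusted p under 0.05. SUPT16H, a subunit of the histone chaperone FACT, read 2011 and 1919.6 in sgControl and 2102 and 2159 in sgHNRNPC. TOX4 read 351 and 314 in sgControl and 367 and 371 in sgHNRNPC, and both were slightly higher after the knockdown without passing. The log2 changes of RAB2B, METTL17, METTL3 and ARHGEF40 were +0.27 ± 0.14, +0.01 ± 0.16, -0.07 ± 0.16 and -0.35 ± 0.18.

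Of the 8961 transcripts, 893 (9.97%) changed at an adjusted p under 0.05 by limma, 302 of them higher (3.37%) and 591 lower (6.60%) in sgHNRNPC. The changes were small. The median call was +0.31 on the log2 scale among those higher and -0.31 among those lower, 91 calls passed 1.5-fold and 9 passed 2-fold. Both sgHNRNPC libraries lay on one side of both sgControl libraries for 892 of the 893 calls, against 50.6% of all transcripts tested. The calls were chosen on these same values, so this is not separate support for them. The number of calls depended on each library, at 530 without the first and 695 without the second sgControl library, 595 without the first and 401 without the second sgHNRNPC library. The split between directions depended on the scaling. The share of calls that were higher was 33.8% as deposited, 46.7% after quantile normalisation and 46.5% with libraries scaled to equal totals without the 2 most abundant transcripts.

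**Figure D1:**
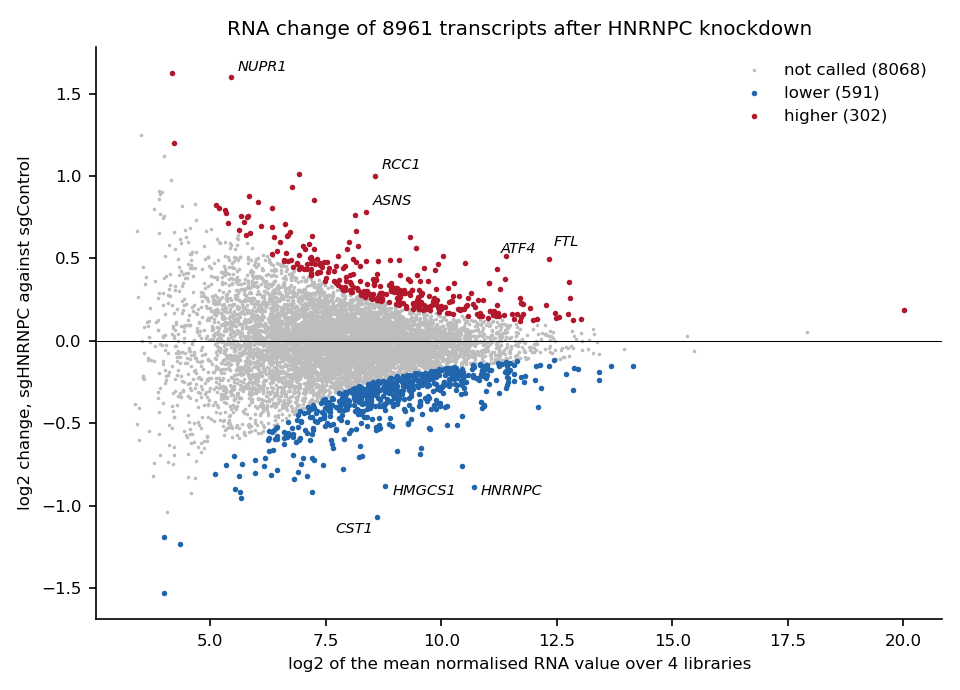
Each point is 1 of 8961 transcripts, with the log2 of its mean normalised RNA value over 4 libraries on the horizontal axis and its log2 change between sgHNRNPC and sgControl on the vertical axis. The 302 transcripts called higher are red, the 591 called lower are blue and the 8068 not called are grey. HNRNPC, at -0.89, is among the largest changes of an abundant transcript.

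Among calls with a mean of at least 50, the largest rises were in CENPH (a subunit of the inner kinetochore), which read 78.4 and 80.7 in sgControl and 170.5 and 153 in sgHNRNPC, and in RCC1 (the chromatin-bound exchange factor of Ran), which read 252 and 248 in sgControl and 483 and 522 in sgHNRNPC. Both sgHNRNPC libraries held about 2 times the sgControl values, with log2 changes of +1.01 ± 0.15 and +1.00 ± 0.09. The other 10 of the 12 largest rises lay between +0.75 and +0.94. They included ASNS and CDKN1A, which are described below, CBR4 (a subunit of a mitochondrial reductase), SEL1L3, C6orf136, CEBPZOS, REEP6, TRIM68, CEP76 (a centriolar protein) and MRPL53 (a protein of the mitochondrial ribosome).

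The largest falls were in cystatins. CST1, which encodes cystatin SN, a secreted inhibitor of cysteine proteases, read 539 and 523 in sgControl and 243 and 263 in sgHNRNPC, a change of -1.07 ± 0.09 (adjusted p = 4.70e-21). CST2 (cystatin SA) read 61.5 and 72.4 in sgControl and 37.1 and 31.2 in sgHNRNPC. In these genes 27.1% and 8.3% of 50-base stretches occur in another listed transcript. The other falls, besides HNRNPC, HNRNPCL1 and HMGCS1, were in RASD1 (a small GTPase), HERC3 (a ubiquitin ligase), COL18A1 (a basement membrane collagen), TRIM6, FSCN1 (the actin-bundling protein fascin), ASAP3 and ENST00000447346, which has no matched symbol. Their changes lay between -0.78 and -0.92.

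Most genes of cholesterol synthesis fell. They are switched on by the transcription factor SREBP2 when sterols run low. Of 31 genes of the pathway tested, 19 fell (61.3%, against 6.60% of all transcripts) and 0 rose. Their median log2 change was -0.26, against -0.02 over all transcripts. HMGCS1, which makes the HMG-CoA that the pathway starts from, read 576 and 569 in sgControl and 298 and 324 in sgHNRNPC. The change of -0.88 ± 0.08 (adjusted p = 1.91e-17) was close to that of HNRNPC itself.

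In the middle of the pathway, MVK (mevalonate kinase) read 113 and 70.4 in sgControl and 50.3 and 58.5 in sgHNRNPC. IDI1 (isopentenyl diphosphate isomerase) read 708 and 696 in sgControl and 607 and 576 in sgHNRNPC. FDPS, which builds farnesyl diphosphate, read 714 and 745 in sgControl and 557 and 479 in sgHNRNPC. All 3 fell in both sgHNRNPC libraries, by 0.71, 0.25 and 0.50 on the log2 scale. The enzymes that commit farnesyl units to sterols followed. FDFT1 (squalene synthase) changed by -0.48 ± 0.07, SQLE (squalene epoxidase) by -0.48 ± 0.15 and LSS (lanosterol synthase) by -0.35 ± 0.12. CYP51A1, the lanosterol demethylase, read 1489 and 1539 in sgControl and 1085 and 1043 in sgHNRNPC (adjusted p = 7.76e-14). MSMO1, which acts after it, changed by -0.51 ± 0.08, and DHCR7, a reductase at the end of the pathway, by -0.31 ± 0.10.

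Further genes of this list fell too. INSIG1, the sterol-responsive brake on SREBP processing and itself an SREBP target, read 2239 and 2207 in sgControl and 1757 and 1619 in sgHNRNPC (-0.40 ± 0.05, adjusted p = 3.79e-11). SREBF2, the gene of SREBP2, changed by -0.23 ± 0.07. ACAT2 (-0.46 ± 0.09), STARD4 (-0.27 ± 0.07) and FASN, the fatty acid synthase (-0.26 ± 0.06), fell as well. The count of lower members was 12 without the first sgControl library and 9 without the second sgHNRNPC library, and between 16 and 20 under the other settings.

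Genes of the amino acid response rose more often than they fell. ATF4 is a transcription factor that cells induce when amino acids are short or when the kinase branch of the integrated stress response is active, and it drives amino acid synthesis, transport and tRNA charging. Of 36 genes of this list tested, 13 rose (36.1%, against 3.37% of all transcripts) and 1 fell, with a median log2 change of +0.21. ATF4 itself read 1966 and 2023 in sgControl and 2646 and 2747 in sgHNRNPC, a change of +0.43 ± 0.05 (adjusted p = 6.42e-14). ASNS (asparagine synthetase) read 244 and 241 in sgControl and 399 and 438 in sgHNRNPC, which was +0.78 ± 0.09 (adjusted p = 8.61e-12). NUPR1, a small stress-induced chromatin protein, was low and read 22.3 and 19.7 in sgControl and 76.8 and 55.6 in sgHNRNPC, the largest change in the list at +1.60 ± 0.26.

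DDIT3, which encodes the stress transcription factor CHOP, read 105 and 125 in sgControl and 179 and 178 in sgHNRNPC. CEBPG, a dimer partner of ATF4, read 674 and 684 in sgControl and 825 and 828 in sgHNRNPC. Both rose, by +0.64 ± 0.14 and +0.28 ± 0.07. The serine pathway was represented by PHGDH, its first enzyme, at 42.4 and 42.4 in sgControl and 66.2 and 67.3 in sgHNRNPC, by PSAT1, its second, at 518 and 480.2 in sgControl and 774 and 769 in sgHNRNPC, and by SHMT2, the mitochondrial enzyme that takes one-carbon units from serine, with a change of +0.20 ± 0.06. Of these PSAT1 had the smallest adjusted p (4.94e-13).

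Transporters of the same list divided. SLC7A5 and SLC3A2, the light and heavy chains of the large neutral amino acid exchanger, changed by +0.49 ± 0.07 and +0.35 ± 0.08. SLC1A5 and SLC38A1, which carry glutamine, changed by +0.36 ± 0.07 and +0.31 ± 0.06. SLC7A11, the cystine importer, was the exception. It read 844 and 822 in sgControl and 650.1 and 638 in sgHNRNPC, a fall of 22.7% (adjusted p = 5.66e-06). XPOT, the tRNA export receptor, read 2241 and 2238 in sgControl and 3236 and 3176 in sgHNRNPC and had the smallest adjusted p of the list (2.42e-19). With any single library left out, between 10 and 12 members of the list were called higher.

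Of the 23 cytosolic aminoacyl-tRNA synthetase genes and their scaffold proteins, 8 rose (34.8%, against 3.37% of all transcripts) and 1 fell (median +0.07). AARS1, for alanine, read 672 and 663 in sgControl and 866 and 948 in sgHNRNPC and IARS1, for isoleucine, read 1815 and 1893 in sgControl and 2431 and 2302 in sgHNRNPC. The changes were +0.44 ± 0.06 and +0.35 ± 0.05. YARS1, SARS1, AIMP1, WARS1, GARS1 and TARS1 rose by between 0.17 and 0.29 on the log2 scale, and VARS1, for valine, changed by -0.22 ± 0.07. The count of higher members was sensitive to single libraries, at 3 without the second sgControl library and 5 without either sgHNRNPC library. The 14 mitochondrial synthetases tested held 0 rises and 1 fall, in IARS2 (-0.34 ± 0.07). Their median was -0.10, and 7.14% were called, against 9.97% of all transcripts.

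ATF4 binds DNA as a dimer with C/EBP proteins at a composite element. Its letters TGATGNAA, on either strand, were searched in RefSeq promoter windows (GRCh38.p14, 250 bases before to 50 after each annotated start). They were found in 4.46% of 27305 genes and in 2.61% of the 7279 members with a window. Among called members they were found in 12 of 236 higher (5.08%) and 12 of 469 lower (2.56%), and in 2.53% of those not called. Most of those 12 higher genes belong to the ATF4 and synthetase lists, so the list counts that follow are not a separate result. The share among higher genes outside these lists was not taken. In the ATF4 list the letters stood in 5 of 11 higher genes and 3 of 17 not called, and in the synthetase list in 4 of 7 higher and 3 of 12 not called. Among the latter CARS1, MARS1 and NARS1 hold the letters and did not pass, with log2 changes of +0.19 ± 0.07, +0.16 ± 0.06 and +0.00 ± 0.08. The windows of the 4 called genes of smallest p that hold the letters are shown because they carry the comparison, with the match in capitals and the gene's strand read 5′ to 3′, at chr7:97872458-97872487 (minus strand), chr9:92293692-92293721 (minus), chr16:70289675-70289704 (minus) and chr19:46784893-46784922 (minus) in turn.
ASNS: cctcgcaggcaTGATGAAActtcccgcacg
IARS1: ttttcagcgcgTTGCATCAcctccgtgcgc
AARS1: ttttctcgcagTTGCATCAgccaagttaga
SLC1A5: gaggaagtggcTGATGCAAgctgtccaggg
In ASNS and SLC1A5 the match is on the strand of the gene, and in IARS1 and AARS1 it is on the opposite strand, so that its complement is printed. It begins 68 bases before the annotated start in ASNS, 13 before in IARS1, 187 before in AARS1 and 97 before in SLC1A5. A match describes the letters only.

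Other stress pathways were read for comparison. Of 26 genes of the endoplasmic reticulum chaperones and the unfolded protein response, 1 rose, HERPUD1 at +0.40 ± 0.14, and 4 fell. That is 19.2% called, against 9.97% of all transcripts. HSPA5, the principal chaperone of that response, read 3157 and 2842 in sgControl and 2691 and 2439 in sgHNRNPC and fell by 0.23 on the log2 scale, and CALR, PDIA4 and EDEM1 fell by 0.15, 0.18 and 0.23. Of 13 p53 targets tested, 1 rose and 1 fell (15.4% called, against 9.97% of all transcripts). CDKN1A, the cell cycle inhibitor p21, read 206 and 210.1 in sgControl and 364 and 344 in sgHNRNPC (+0.77 ± 0.10, adjusted p = 5.57e-10), and MDM2 changed by -0.17 ± 0.05.

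Inverted pairs of Alu repeats can form double-stranded RNA, so interferon-stimulated genes and double-stranded RNA sensors were taken as a list. Of 30 tested, 2 rose and 0 fell (6.67% called, against 9.97% of all transcripts), with a median of +0.00. EIF2AK2, the kinase PKR, read 772 and 769 in sgControl and 923 and 938 in sgHNRNPC. BST2 (tetherin) read 374 and 346 in sgControl and 443 and 414 in sgHNRNPC. The changes were +0.27 ± 0.06 and +0.25 ± 0.08. Of 19 NF-kB and cytokine genes, 0 rose and 2 fell (10.5% called, near the 9.97%). The 2 were BIRC2 at -0.29 ± 0.06 and CXCL8 at -0.54 ± 0.19.

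**Figure D2:**
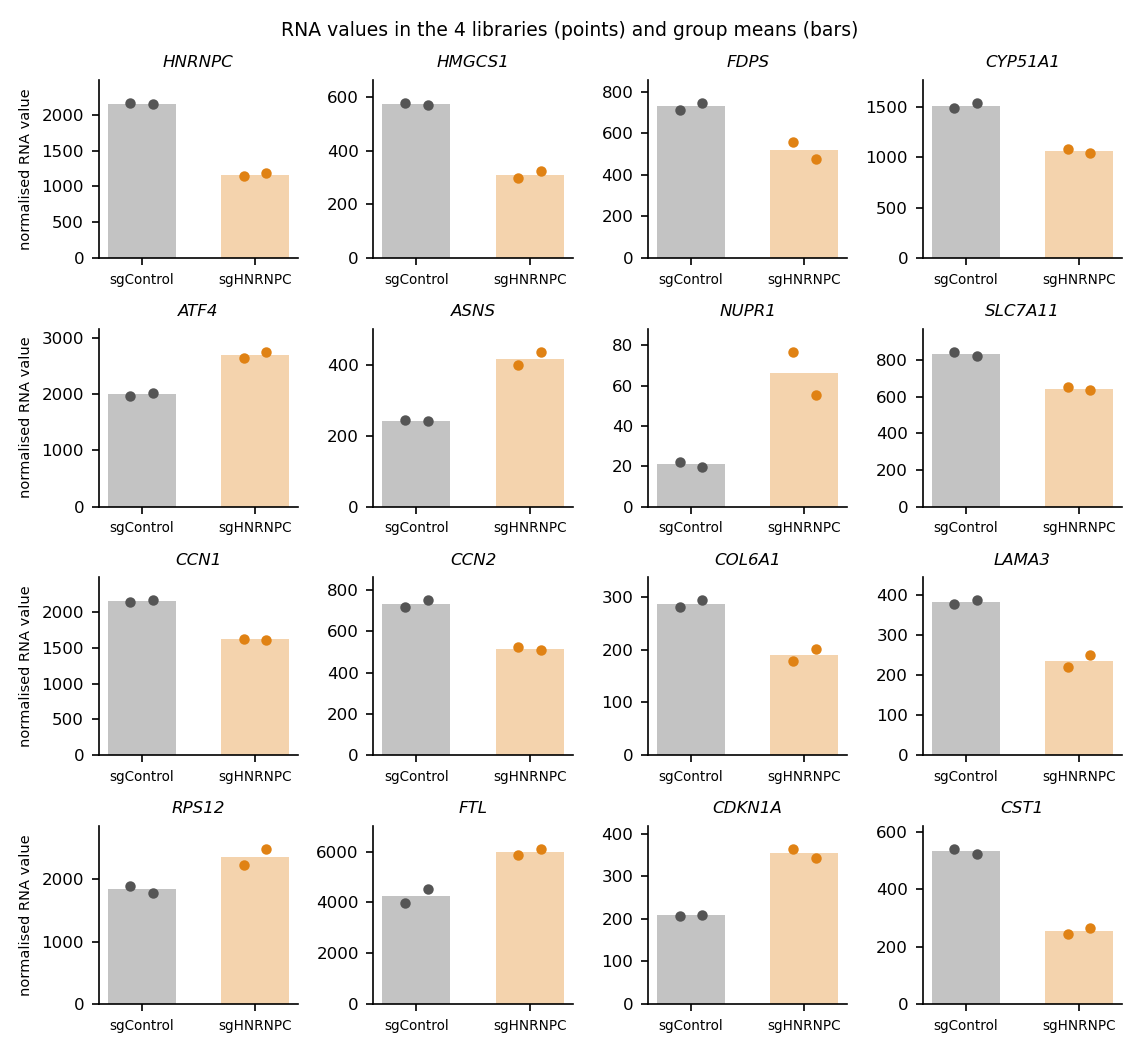
Each panel shows the normalised RNA values of 1 gene on a linear axis from 0, with points for the 2 sgControl (grey) and 2 sgHNRNPC (orange) libraries and bars for their means. In all 16 panels the points of the 2 lines do not overlap, as for 892 of the 893 calls, which were chosen on these same values. HNRNPC, HMGCS1 and CST1 fall by between 45.7 and 52.3%, ASNS, NUPR1 and CDKN1A rise, and SLC7A11 falls while ATF4 rises.

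Among cytosolic ribosomal protein genes the calls were all small rises. Of 73 tested, 20 rose (27.4%, against 3.37% of all transcripts) and 0 fell, with a median of +0.07. Of the 20% of transcripts with the highest RNA level, 7.03% were called higher. The part of RNA level in the count of ribosomal protein genes was not tested. RPS12 read 1901 and 1787 in sgControl and 2229.5 and 2486 in sgHNRNPC (+0.35 ± 0.05, adjusted p = 4.47e-09), and RPSA read 4305 and 4765 in sgControl and 5249.5 and 5282 in sgHNRNPC. RPS25, RPL37 and RPL39 changed by +0.23 ± 0.04, +0.21 ± 0.05 and +0.23 ± 0.05. The count was 13 with libraries rescaled to equal totals, 5 without the first sgControl library and 7 without the second sgHNRNPC library. The 78 mitochondrial ribosomal protein genes held 3 rises and 3 falls (median +0.02), 7.69% called against 9.97% of all transcripts.

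Iron genes moved in opposite directions. FTL, the light chain of the iron store ferritin, read 3992 and 4513 in sgControl and 5878 and 6096 in sgHNRNPC. FTH1, the heavy chain, read 6037 and 6078 in sgControl and 7543 and 7987 in sgHNRNPC. Both rose, by +0.50 ± 0.04 (adjusted p = 1.20e-20) and +0.36 ± 0.04 (adjusted p = 6.42e-14). TFRC, the transferrin receptor that brings iron in, read 1871 and 1657 in sgControl and 1488 and 1557 in sgHNRNPC. ACO1, the iron regulatory protein IRP1, read 709 and 677 in sgControl and 556 and 579 in sgHNRNPC. Both fell, and the other 7 of the 11 iron genes tested did not pass (36.4% called, against 9.97% of all transcripts). Ferritin is also a target of the antioxidant factor NRF2. Of 20 NRF2 genes those 2 rose and 4 fell (30% called, against 9.97% of all transcripts). The 4 were TXNRD1 (thioredoxin reductase), SLC7A11, TKT and TALDO1 of the pentose phosphate pathway, at -0.30 ± 0.05, -0.37 ± 0.07, -0.25 ± 0.06 and -0.29 ± 0.08.

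Among genes of the cell's contact with its surroundings most calls were falls, as were 591 of the 893 calls over all transcripts. The epithelial junction and keratin list, with 3 rises and 2 falls of 16 genes, was an exception. Of the 20% of transcripts with the highest RNA level, 13.7% were called lower. The part of RNA level in the counts of these lists was not tested. YAP and SRF are regulators of transcription that respond to cell tension. Of 20 of their targets, 10 fell (50%, against 6.60% of all transcripts) and 0 rose (median -0.14). CCN1, a secreted matricellular protein and a standard YAP readout, read 2142 and 2159.7 in sgControl and 1625 and 1614 in sgHNRNPC (-0.41 ± 0.05, adjusted p = 1.20e-11). CCN2 (connective tissue growth factor) read 718 and 748 in sgControl and 525 and 507 in sgHNRNPC. The fall of CCN2, -0.51 ± 0.07, was the largest called in the list. ANKRD1, CRIM1, LATS2, TGFB2, AJUBA and MYOF changed by between -0.42 and -0.13, and YAP1 itself by -0.16 ± 0.05. The count of lower members was 6 without the first and 5 without the second sgControl library, and 6 without the second sgHNRNPC library.

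Of 33 collagen, laminin and matrix protease genes, 12 fell (36.4%, against 6.60% of all transcripts) and 1 rose (median -0.19). LAMA3 and LAMB3, laminin chains that anchor epithelial cells, changed by -0.70 ± 0.10 and -0.21 ± 0.06. LAMA3 read 378 and 387 in sgControl and 221 and 250.5 in sgHNRNPC. The chains LAMC1, LAMB1 and LAMA5 fell too, by 0.33, 0.33 and 0.39 on the log2 scale. COL6A1 and COL6A3, subunits of the same collagen, went in opposite directions. COL6A1 read 281 and 293 in sgControl and 179 and 201 in sgHNRNPC. COL6A3 read 87.9 and 73.5 in sgControl and 128 and 124 in sgHNRNPC. Further falls were in COL12A1, PLOD2 (a collagen lysyl hydroxylase), MMP14 (a membrane-bound matrix protease), FN1 (fibronectin) and TIMP3 (a protease inhibitor), between -0.45 and -0.13.

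Of 58 genes of the actin cytoskeleton and LIM-domain proteins, 16 fell (27.6%, against 6.60% of all transcripts) and 0 rose (median -0.09). PDLIM5, a LIM-domain scaffold followed by the study, read 643 and 685 in sgControl and 508 and 487 in sgHNRNPC (-0.41 ± 0.07, adjusted p = 3.79e-06). The filamins FLNA and FLNC changed by -0.20 ± 0.04 and -0.20 ± 0.07, the formins DIAPH1 and DIAPH3 by -0.17 ± 0.06 and -0.39 ± 0.07, and ACTN4 (actinin) by -0.22 ± 0.04. Further falls were in MSN, ACTR2, ACTR3, CTTN, CNN3, TLN1, TPM4, LIMK1 and VASP. The count was 10 after each library was corrected for GC content and mRNA length, and 9 without the second sgHNRNPC library.

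Of 16 S100 proteins and annexins, which bind calcium, 7 fell (43.75%, against 6.60% of all transcripts) and 1 rose. ANXA6 read 993 and 1010.0 in sgControl and 746 and 756 in sgHNRNPC (-0.41 ± 0.06). S100A4 and S100A6 changed by -0.29 ± 0.07 and -0.19 ± 0.04, and S100A11 by +0.21 ± 0.06. Of 14 mesenchymal genes 5 fell, among them VIM (vimentin) at -0.15 ± 0.04, and 2 rose. That is 50% called, against 9.97% of all transcripts. The 2 were TGFBR1, the type I receptor for TGF-beta, at 841 and 746 in sgControl and 1053 and 1084 in sgHNRNPC, and its induced matrix protein TGFBI at 328 and 330.1 in sgControl and 462 and 460.1 in sgHNRNPC. Of 11 integrins ITGB4, ITGB2 and ITGA3 fell and ITGA2 rose (36.4% called). Their changes were -0.33 ± 0.08, -0.76 ± 0.25, -0.14 ± 0.05 and +0.16 ± 0.05.

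**Figure D3:**
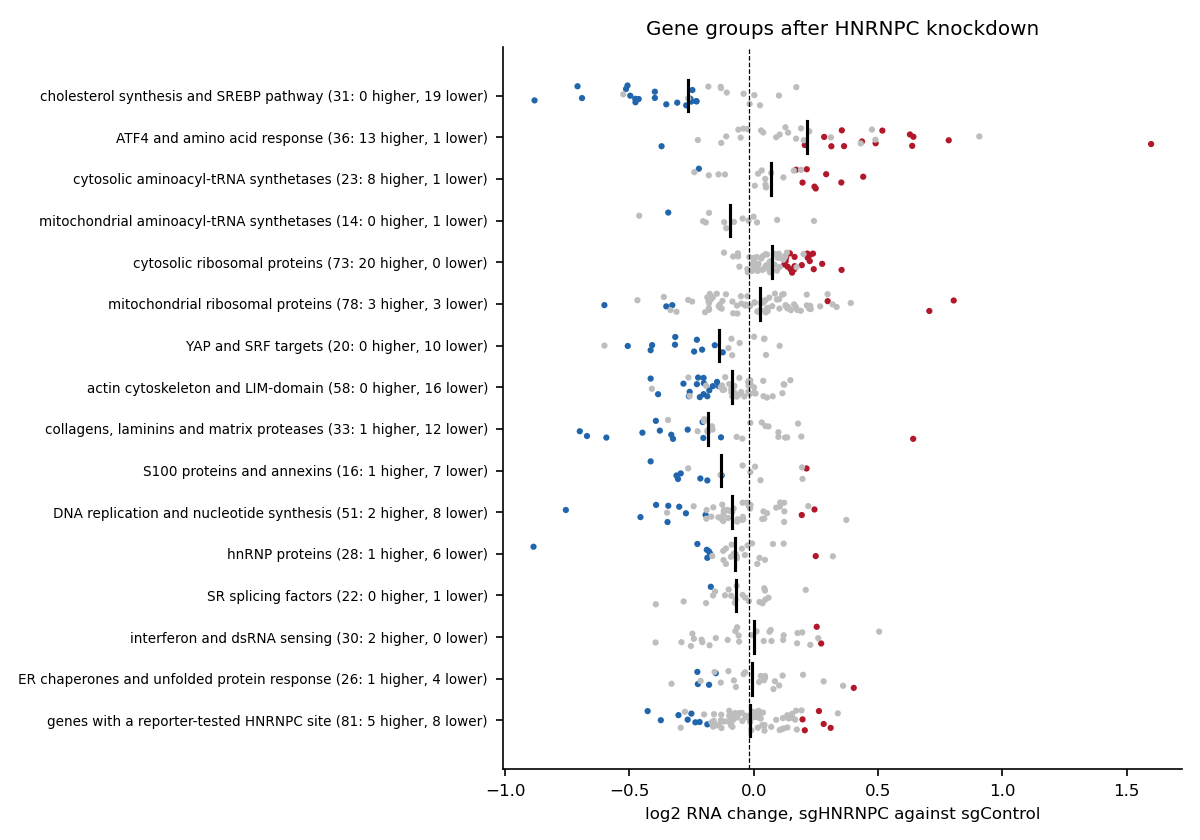
Each point is the log2 RNA change of 1 gene between sgHNRNPC and sgControl in 1 of 16 gene lists, red where called higher, blue where called lower and grey where not called, with a black bar at the list's median and a dashed line at the median of all transcripts, -0.02. The cholesterol list lies to the left with 19 of 31 genes lower, the ATF4 list to the right with 13 of 36 higher, and the ribosomal proteins form a narrow cluster just above 0.

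The DNA replication list of 51 genes held 8 falls and 2 rises (median -0.09), 19.6% called against 9.97% of all transcripts. MCM3, MCM4, MCM5 and MCM6 are subunits of the replicative helicase. MCM3 read 1647 and 1564 in sgControl and 1184 and 1155 in sgHNRNPC, and the 4 changed by -0.46 ± 0.05, -0.39 ± 0.07, -0.35 ± 0.10 and -0.27 ± 0.09. LIG1, the ligase of Okazaki fragments, read 239.5 and 196 in sgControl and 131 and 125 in sgHNRNPC and had the largest fall (-0.76 ± 0.13). FEN1, CDC6 and ATIC fell as well, and IMPDH2, an enzyme of guanine nucleotide synthesis, rose by 0.24. Of 58 genes of mitosis, 4 fell (ANLN, ECT2, CENPE and NCAPG) and 1 rose (CENPN), a share called of 8.62%, near the 9.97% of all transcripts. Of 20 histone genes 4 fell and 2 rose (30% called). The linker histone gene H1-10 rose (+0.44 ± 0.12), while H1-2 and H1-4 fell by 0.22 and 0.25.

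Among proteins that work beside HNRNPC on RNA, the hnRNP family held the largest share of calls. Of 28 hnRNP genes 6 fell, HNRNPC included, and 1 rose. HNRNPM, HNRNPH1, HNRNPL, PTBP1 and PCBP1 changed by -0.23 ± 0.05, -0.18 ± 0.04, -0.19 ± 0.06, -0.18 ± 0.06 and -0.19 ± 0.06. HNRNPDL, which rose, read 1783 and 1689.9 in sgControl and 2017 and 2111 in sgHNRNPC. Of 22 SR splicing factors 1 fell, SRSF1 at -0.17 ± 0.05. Of 49 core spliceosome genes 4 fell (DDX23, SNRPB, SF1 and DHX16) and 2 rose (PRPF38A and SF3B3). The share called was 25.0% of the hnRNP list, HNRNPC included, 4.55% of the SR factors and 12.2% of the core spliceosome, against 9.97% of all transcripts.

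Of 23 cleavage and polyadenylation factors 1 rose, CPSF7 at +0.24 ± 0.08, and 0 fell, 4.35% called against 9.97% of all transcripts. Of 19 poly(A)-binding and export factors 0 passed by limma and 0 with voom weights, and 2 had an unadjusted p under 0.05. The study's own genes of interest included PABPC4, a cytoplasmic poly(A)-binding protein, which read 1098 and 1099 in sgControl and 1185 and 1179.5 in sgHNRNPC (+0.11 ± 0.06, adjusted p = 0.246). PABPN1, its nuclear relative, changed by +0.11 ± 0.08 and AGO2, the slicer of the microRNA pathway, by -0.08 ± 0.05. ELAVL1, a stabiliser of U-rich mRNAs, and PGK1 changed by -0.01 ± 0.07 and -0.08 ± 0.04, and none of these passed. TXNRD1, the other gene followed, read 2307 and 2138 in sgControl and 1809 and 1791 in sgHNRNPC and fell by 0.30 on the log2 scale (adjusted p = 4.64e-07). In the microRNA pathway DROSHA and XPO5, which cut and export precursors, changed by -0.36 ± 0.08 and -0.35 ± 0.08, and AGO3 by +0.35 ± 0.09. These were the calls among 14 genes tested, a share of 21.4%.

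Zinc finger genes of chromosome 19, most of them repressors of transcription, held 6 rises and 0 falls of 76 tested (7.89% higher, against 3.37% of all transcripts), with a median of +0.06. ZNF91, a repressor of young retroelements, read 188 and 219 in sgControl and 297 and 319.7 in sgHNRNPC (+0.60 ± 0.10, adjusted p = 4.64e-06). ZNF480, ZNF841, ZNF585B, ZNF302 and ZNF614 rose by between 0.45 and 0.63. In ZNF585B and ZNF302, 19.7% and 10.1% of 50-base stretches occur in another listed transcript.

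The median response differed little between transcripts with and without the features that HNRNPC is known to bind. Transcripts were divided by the longest run of U in the 3′ untranslated region (3′UTR). The median log2 change was -0.03 in those with a run of at most 4 and -0.02 in those with a run of 11 or more. The share lower was 5.07% in the first and 7.16% in the second, and the share higher 4.09% and 3.38%. By the number of sites of C followed by 6 U, the median was -0.02 with 0 sites and -0.02 with 3 or more, and the share lower 6.16% and 7.90%. Runs of 9 or more T per kb of intron, on the sense strand, gave a median of -0.01 in the lowest 20% of genes and -0.02 in the highest 20%, with 6.67% and 5.42% lower. AUUUA, an element of unstable mRNAs, gave -0.03 with 0 sites and -0.02 with 6 or more.

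Gene and coding length went with more falls. From the shortest 20% of coding sequences (at most 759 bases) to the longest 20% (2595 bases or more), the median went from 0.00 to -0.04 and the share called lower from 3.99% to 9.75%. From genes of at most 5 exons to those of 18 or more it went from -0.01 to -0.05, with 5.30% and 10.0% lower. By summed intron length the median went from +0.01 to -0.04, with 4.20% and 8.57% lower. All 3 differences in median were under 0.05 on the log2 scale. After correction of each library for GC content and mRNA length, which takes out part of any length trend by construction, the median of the longest coding sequences was -0.01 and that of the shortest +0.01. Calls also went with depth, since 1.28% and 1.62% of the 20% with the lowest RNA level were called higher and lower, against 7.03% and 13.7% of the 20% with the highest level. The part of RNA level in the length trend, and in the shares called of the gene lists, was not tested.

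**Figure D4:**
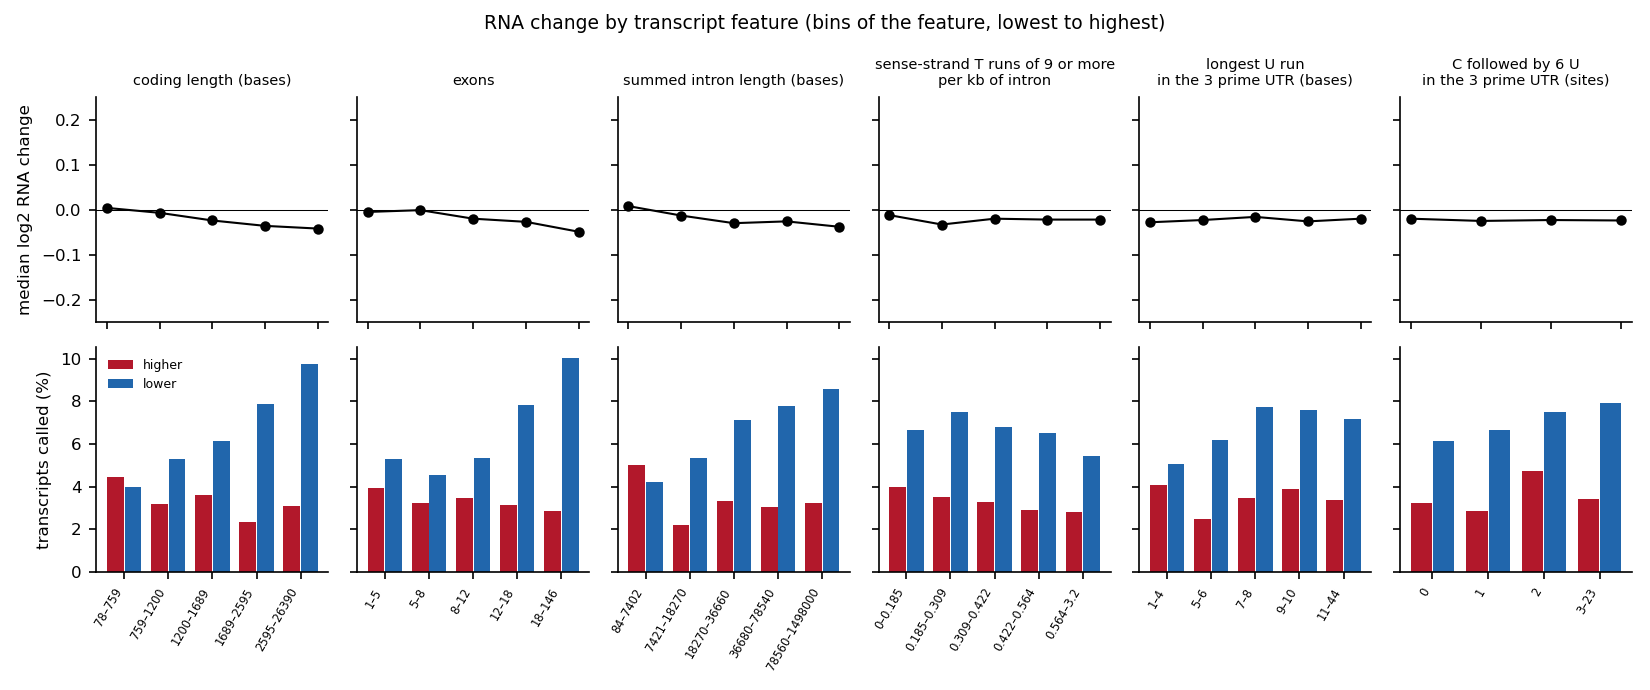
For each of 6 transcript features, split into bins from low to high along the horizontal axis, the upper panels give the median log2 RNA change and the lower panels the percent of transcripts called higher (red) and lower (blue). The share lower rises from 3.99 to 9.75% with coding length, while the medians by U run, by sites of C followed by 6 U and by intronic T runs stay near -0.02.

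The study also built a reporter library, and 98 HNRNPC-bound sites were read from its published list. Of these, 81 were matched to a listed mRNA here, 80 of them starting in a 3′UTR. Of the 81 genes, 5 rose and 8 fell (median -0.01), that is 6.17% and 9.88%, against 3.37% and 6.60% of all transcripts. Of the 81 sites, 50 hold at least 5 T in a row. A window of 30 bases around the longest U run of the site is shown for 4 genes of smallest p, to set a site beside the direction of its mRNA, in RNA letters, with the longest run in capitals (hg38). They lie at chr3:149369734-149369763 (minus strand), chr4:139511279-139511308 (minus), chr1:23759914-23759943 (plus) and chr14:105011082-105011111 (minus).
TM4SF1: ccccacagucuacUUUUacaaacgccugua
SETD7: uuuccauagugcUUUUUUccuauggccagu
ELOA: gguuuguuuuugUUUUUUguccucuaccac
CDCA4: cUUgcugcccugucugcugauucugagaaa
TM4SF1, a plasma membrane protein, read 1164 and 1114 in sgControl and 845 and 913 in sgHNRNPC. CDCA4, a cell division protein, read 348 and 377 in sgControl and 247 and 292 in sgHNRNPC. Both fell, by 0.37 and 0.43 on the log2 scale, and their sites have runs of 4 and 2. SETD7, a lysine methyltransferase, read 1403 and 1376 in sgControl and 1680.1 and 1652 in sgHNRNPC. ELOA, an elongation factor subunit, read 630.5 and 674 in sgControl and 819.7 and 795 in sgHNRNPC. Both rose, by 0.26 and 0.31, and their sites have runs of 6. Among the other called genes SMAD3, SF3B3 and MAP3K7 rose, with runs of 8, 6 and 4. MSN, ANP32E, EFHD2, PXDN, KIAA0319L and BICD2 fell, with runs of 5, 5, 6, 3, 2 and 6. Runs of at least 6 were thus found in 4 of the 5 genes that rose and 2 of the 8 that fell, a difference that was not tested. It depends on the cut. At the cut of 5 used for all 81 sites, MSN and ANP32E, which fell, are added and the difference is smaller. How many of all 81 sites hold a run of at least 6 was not counted.

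Ribosome footprints of the same lines were tested in the 4283 transcripts with a mean footprint value of at least 10. By limma 1 of them (0.0233%) passed, ASNS. Its footprints were 25.3 and 16.7 in sgControl and 53.2 and 50.4 in sgHNRNPC, a log2 change of +1.29 ± 0.24 (adjusted p = 0.0305), beside +0.78 for its RNA. Of the 302 transcripts whose RNA rose, 178 passed that footprint limit, 137 of them with a positive change, with a median footprint change of +0.22. Of the 591 whose RNA fell, 428 passed it, 133 of them positive, with a median of -0.13. The median footprint change over all 4283 was +0.02, and the share of positive changes among them was not taken. Footprints and RNA come from the same lysates, so these are not independent cultures. For HNRNPC footprints read 73.4 and 111 in sgControl and 54.4 and 67.0 in sgHNRNPC, a change of -0.57 ± 0.19 that did not pass.

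In the metastatic line HNRNPC RNA was 2768 and 2664 in MDA-Par and 2197 and 1930.3 in MDA-LM2, lower in both but not past the test (-0.40 ± 0.12, adjusted p = 0.0551). Over 10772 transcripts 1813 (16.8%) differed between these lines, 725 (6.73%) higher and 1088 (10.1%) lower in MDA-LM2. This count ranged from 723 without the first MDA-Par library, and 844 without the second, to 5040 and 3373 without the first and the second MDA-LM2 library. These libraries are not shared with the knockdown, but were deposited in a table normalised separately. Of the 302 transcripts higher after the knockdown, 19 were higher in MDA-LM2 (6.3%) and 34 lower (11.3%). Of the 591 lower after the knockdown, 47 were higher (8%) and 112 lower (19%). Against the shares over all transcripts, 6.73% higher and 10.1% lower, the falls after the knockdown held more transcripts lower in MDA-LM2, and the rises held shares near the background. These overlaps were not tested.

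By group, cholesterol genes were lower in both comparisons, with 15 of 31 lower and 0 higher in MDA-LM2 (median -0.46). INSIG1 changed by -1.54 there. The ATF4 list held 9 higher and 4 lower (median +0.17). NUPR1 and PHGDH were higher in MDA-LM2 by 2.84 and 3.44 on the log2 scale, and DDIT3 lower by 0.55. Ribosomal proteins, 20 of which rose after the knockdown, had 0 higher and 5 lower (median -0.25). Matrix genes went the other way, with 14 higher and 2 lower (median +0.27), and LAMB3, PLOD2 and COL6A1, all lower after the knockdown, were higher in MDA-LM2 by 0.86, 0.75 and 1.67.

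**Figure D5:**
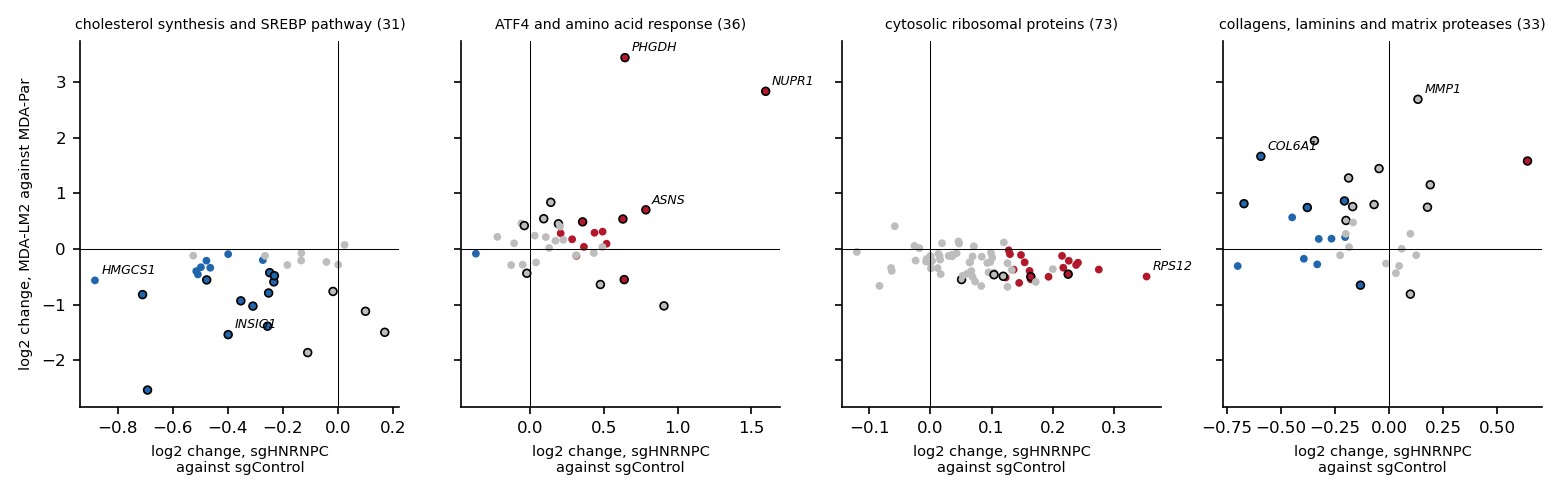
Each point is 1 gene of the list named above the panel, with its log2 RNA change after HNRNPC knockdown on the horizontal axis and between MDA-LM2 and MDA-Par on the vertical axis. Red and blue mark genes called higher and lower after the knockdown, and a black rim marks an adjusted p under 0.05 between MDA-LM2 and MDA-Par. Cholesterol genes lie mostly in the lower left, ribosomal proteins mostly in the lower right, and many matrix genes in the upper left.

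Other lists are given with their share called, to be read against 9.97% of all transcripts. Of 74 respiratory chain genes 5 fell and 2 rose (9.46%), and of 35 proteasome genes 3 fell (8.57%), shares near that background. Of 18 glycolysis genes 2 fell (11.1%), PFKP (phosphofructokinase, -0.54 ± 0.06) and ENO1. Of 37 lysosome and autophagy genes 2 fell, CTSD (cathepsin D, -0.39 ± 0.05) and BECN1, and 3 rose (13.5%). Of 13 hypoxia genes VEGFA, the vascular growth factor, rose (+0.41 ± 0.10), and NDRG1 and BNIP3L fell (23.1%). Of 16 epithelial genes the keratins KRT7, KRT80 and KRT81 rose and the junction genes JUP and OCLN fell (31.2%). In bulk RNA of a cell line fewer cells of a kind and less RNA per cell cannot be told apart, which holds for all of these groups.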

How the data were processed

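RNA and ribosome footprints were read from the same lysates of MDA-MB-231 lines. Total RNA libraries were made with a stranded low-input kit and sequenced as single 50-base reads. Per the study's methods and processing notes, reads were trimmed (cutadapt 2.3), ribosomal and transfer RNA reads removed, and the rest aligned (Bowtie2 2.3.5, hg38) to the isoform with the longest coding sequence of each gene. How the counting treated strand and reads of several transcripts is not given in the sources used here. The deposited values, named signal here, are counts that the authors divided by median-of-ratios size factors, so fold changes are relative to a typical transcript. All values (100.0%) are whole multiples of the value of 1 read, to within 0.01 read, so the reads behind each listed value are known.

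Values were compared as log2(value + 1) with limma 3.58.1 (R 4.3.3), whose prior variance followed the mean, in the 4 RNA libraries alone (2 against 2), with Benjamini-Hochberg adjustment over all members and a threshold of 0.05. The prior carried 148 degrees of freedom beside the 2 of each transcript, so that standard errors and p-values rest mostly on the spread of transcripts of similar level. Fold changes are on that log2 scale. The MDA-LM2 and footprint comparisons used the same fit on their own libraries, with the same minimum mean of 10 in those libraries. Scripts were tested on simulated data. Replicates differed beyond sampling noise (chi-square per transcript 1.48 within sgControl and 1.47 within sgHNRNPC, against 3.44 between lines). Members, the 46 gene lists and tests were chosen with earlier results of these data known. Named genes are HNRNPC and RALY, genes the study follows, neighbours within 250 kb, the 12 largest rises and falls with a mean of at least 50 and no overlap, and up to 4 called members of smallest p per list. Further called members of a list, and the synthetase genes that hold the promoter letters without passing, were named after their values were seen, and members of short lists that did not pass are given by counts. Some genes that this rule names are not reported here. Alternatives were other added values (0.5 and 5), filters, scalings, robust moderation, correction for GC content and length, a replicate block and each library left out. A further alternative called transcripts at an unadjusted p under 0.01.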

Additional observations from a re-analysis of the deposited data

How the results depend on the processing

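HNRNPC stayed lower under all settings run, between -0.91 and -0.86 on the log2 scale. At an adjusted p under 0.05, calls numbered between 775 and 960 under settings that kept all 4 libraries. With calls made at an unadjusted p under 0.01 by limma instead, they numbered 1120. After quantile normalisation 694 of the 893 held and 1 changed sign. With 1 library left out, a lone sample being assumed to vary like the others, the calls ranged from 401 to 695, those higher from 126 to 237 and those lower from 275 to 458. The lists' counts then ranged from 9 to 18 for lower cholesterol genes, 10 to 12 for higher ATF4 genes, 3 to 7 for higher synthetases, 5 to 19 for higher ribosomal proteins, 5 to 8 for lower YAP and SRF targets, 9 to 12 for lower actin genes and 8 to 11 for lower matrix genes, and the MDA-LM2 calls from 723 to 5040. Ribosomal proteins numbered 13 with equal totals, and lower actin genes 10 after correction for GC content and length, with and without the replicate block. The cause was not tested. The share of calls higher was 25.7% with equal totals, 25.2% with voom weights on recovered reads, 42.6% after the GC and length correction and 43.5% with that correction and the block.

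The replicate number as a block gave 960 calls, with all 893 among them. Libraries of the same number did not deviate together (correlation across transcripts -0.009), so no shared effect of the number was seen in these values. Whether libraries of the same number were prepared together is not given in the sources used here. Over 269 named genes the alternatives left 4004 values on the same side of the threshold, 547 lost it and 4 gained it. The sign changed in 4 genes, none of which passed. ELAVL1 was at 0.022 with equal totals without the 2 most abundant transcripts, 0.012 after the GC and length correction with or without the block, 0.038 after quantile normalisation and -0.04 to 0.031 with 1 library left out. METTL17 was at -0.011 with equal totals and with voom weights, and -0.061 to 0.076 with 1 left out. With 1 left out METTL3 was at -0.354 to 0.206 and RALY at -0.015 to 0.169. Equal totals without the 2 most abundant transcripts and voom weights were added after seeing the data. The count tests on recovered reads were not run.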

Other observations

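A few further genes were singled out after their values were seen. Besides CST1 and CST2, described above, other cystatin genes fell. CST4 (cystatin S) read 297 and 300.1 in sgControl and 173 and 174 in sgHNRNPC and CST3 (cystatin C), which shares no 50-base stretch with another listed transcript, read 918 and 929 in sgControl and 706 and 728 in sgHNRNPC. Their log2 changes were -0.78 ± 0.11 and -0.36 ± 0.06 (adjusted p = 6.63e-09 and 3.47e-06 by limma), and CST6, at 21.2 and 24.8 in sgControl and 10.6 and 10.7 in sgHNRNPC, did not pass (adjusted p = 0.0602). The shared stretches of CST4 are not given here, and reads of CST1, CST2 and CST4 may not have been separable.

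Some genes of HLA class I, which present peptides to T cells, were higher. HLA-B read 552 and 527 in sgControl and 719 and 681 in sgHNRNPC (+0.38 ± 0.07), and HLA-C changed by +0.23 ± 0.07, with adjusted p of 2.06e-05 and 0.0129 by limma. HLA-E, HLA-F and HLA-G, at +0.10 ± 0.06, +0.50 ± 0.21 and +0.41 ± 0.25, did not pass. EIF3C, a subunit of an initiation factor, and its copy EIF3CL changed by -0.69 ± 0.07 and -0.65 ± 0.07, and since 98.8% of the 50-base stretches of EIF3C are shared, they count as 1 observation. Among calls with a mean under 50, SLC16A13 and TST rose by +1.62 ± 0.39 and +1.20 ± 0.37, and MSLN, RAPGEF3 and FAHD2B changed by -1.53 ± 0.40, -1.23 ± 0.35 and -1.19 ± 0.39, each with under 20 reads in its lowest library.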
